A study of Mus musculus with 18 samples.

Results

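The effect of Pole4 loss in cells without Trp53 was read from 6 of the 18 RNA-seq libraries of the series: 3 from Pole4-/- Trp53-/- and 3 from Pole4+/+ Trp53-/- primary mouse embryonic fibroblasts (MEFs), picked by the genotypes their labels give. The other 12 libraries are the same Pole4 genotypes with Trp53+/+ or Trp53+/-, 3 each. Pole4-/- cells carry a germline null allele of Pole4, the Trp53-/- cells of both groups carry no functional Trp53, and all animals were on a C57BL/6 background. Cultures were made from mid-gestation embryos with head and organs removed, grown at 5% oxygen without drug and used at passage 1. The sources do not say whether the 3 libraries of a genotype came from 3 embryos, so the p-values below measure the spread between libraries. Since 1 Pole4+/+ Trp53-/- library, the first, stood apart from the other 5, the counts and list medians below are given with and without it, and so is each printed difference of a single gene that moved by over 1.5 times.

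DNA polymerase epsilon makes the leading strand and is also part of the helicase that opens replication origins. Its catalytic subunit is Pole, Pole2 is the essential second subunit, and Pole3 and Pole4 are small histone-fold subunits that bind as a pair; Pole3 also pairs with Chrac1 in chromatin remodelling complexes. Trp53, the tumour suppressor, stops the cell cycle after damage largely by switching on the CDK inhibitor Cdkn1a, and low CDK activity in turn holds back E2F-driven transcription of replication genes. The comparison asks what Pole4 loss does to the transcriptome once that brake is gone.

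The Trp53 genotype showed in the counts. Trp53 read 10.03, 12.1 and 11.9 counts per 1e6 counts (CPM, scaled by edgeR's TMM) in Pole4-/- Trp53-/- libraries and 11.6, 8.65 and 12.1 in Pole4+/+ Trp53-/- libraries, against 86.6 to 96.1 in Pole4+/+ Trp53+/+. Cdkn1a, its best-known target, was between 5.17 and 12.03 CPM in all 6 libraries and between 232 and 251 in Pole4+/+ Trp53+/+ libraries. Neither gene differed by Pole4 genotype beyond the test's threshold (Cdkn1a −0.58 ± 0.23 log2, adjusted p = 0.457).

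The 6 libraries held 10608167 to 28422803 counts. Ribosomal RNA genes took 24.8%, 30.04% and 24.7% of the counts in the Pole4-/- Trp53-/- libraries and 1.82%, 13.1% and 2.32% in the Pole4+/+ Trp53-/- libraries; the groups did not overlap, and this share cannot be told apart from the genotype. The second Pole4-/- Trp53-/- library was male by Xist and the Y-linked genes and the other 5 female. The first Pole4+/+ library also held 2.76 CPM of the Y-linked Ddx3y beside 857 CPM of Xist, where the other 4 female libraries held at most 0.0907 CPM of Ddx3y. All 14 fibroblast markers were detected in each of the 6 libraries. Over all genes tested, the log2 CPM of the first Pole4+/+ library correlated with that of the other 5 libraries at r = 0.943 to 0.953, across genes that are not independent replicates, where other pairs reached 0.986. The median SD of log2 CPM over all genes was 0.328 in Pole4+/+ Trp53-/-, 0.169 without the first library and 0.149 to 0.176 in the other 5 genotypes.

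Pole4 and Pole3 each have an E2F-type match shortly before their RefSeq start, and Pole2 has none in the 250 bases before it. Pole had no entry among the RefSeq promoters used and was not searched. The stretches are shown because the levels of these subunit genes are set beside lists of E2F-driven genes. Each is the 250 bases before the start on its own strand (minus for all 3) in GRCm38.p6, 5′ to 3′, with matches in capitals, a match being TTCCCGC on either strand, or likewise TTGGCGC, or else TTCGCGC, or finally TTGCCGC. The Pole4 stretch is chr6:82652875-82653124, that of Pole2 chr12:69228191-69228440 and that of Pole3 chr4:62525015-62525264.
Pole4: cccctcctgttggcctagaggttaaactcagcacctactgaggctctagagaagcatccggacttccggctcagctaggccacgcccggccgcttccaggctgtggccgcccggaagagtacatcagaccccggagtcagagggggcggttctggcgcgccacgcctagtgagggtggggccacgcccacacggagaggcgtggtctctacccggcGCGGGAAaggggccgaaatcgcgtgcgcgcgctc
Pole2: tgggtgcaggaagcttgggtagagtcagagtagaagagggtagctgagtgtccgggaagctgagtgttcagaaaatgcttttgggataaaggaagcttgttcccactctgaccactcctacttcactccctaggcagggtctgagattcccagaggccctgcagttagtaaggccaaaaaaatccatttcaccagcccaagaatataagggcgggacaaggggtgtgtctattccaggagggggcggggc
Pole3: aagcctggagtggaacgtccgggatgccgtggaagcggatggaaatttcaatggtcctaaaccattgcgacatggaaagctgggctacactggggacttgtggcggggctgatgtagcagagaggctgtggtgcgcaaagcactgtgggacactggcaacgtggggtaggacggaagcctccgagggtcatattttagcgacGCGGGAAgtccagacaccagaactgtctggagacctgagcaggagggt

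The match begins 34 bases before the start of Pole4 and 48 before that of Pole3. Pole2 has 1 match in the 50 bases after its start, which are not printed. Such a match lay in 7.89% of all 32851 promoter stretches of this length in the RefSeq table and in any promoter of 9.01% of all 27025 genes with an entry. Counted by gene in that way it lay in 56.7% of the 30 S-phase genes with an entry, in 54.5% of the 22 origin licensing and firing genes and in 21.7% of the 46 G2/M genes. A match describes letters and is not evidence of binding.

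Reads assigned to Pole4 fell but did not vanish in Pole4-/- Trp53-/- cells. The 3 Pole4-/- Trp53-/- libraries held 11.2, 11.99 and 11.2 CPM of Pole4, and the 3 Pole4+/+ Trp53-/- libraries 14.2, 25.4 and 26.4. The groups did not overlap, and the first Pole4+/+ library lay closer to the Pole4-/- range than to the other Pole4+/+ libraries. The means were 11.4 ± 0.47 (SD, n = 3) and 22.0 ± 6.76 (SD, n = 3). Without the first Pole4+/+ library Pole4 was 1.17 ± 0.13 log2 units (SE) lower (edgeR quasi-likelihood test, adjusted p = 0.00309); with it the difference was −0.93 ± 0.19 and missed the threshold (adjusted p = 0.300). In the other Pole4-/- groups Pole4 lay between 9.26 and 11.5 CPM and in the other Pole4+/+ groups between 16.3 and 23.1, so the first library was below all 8 other Pole4+/+ libraries and above all 9 Pole4-/- libraries. The annotated Pole4 gene spans chr6:82618992-82705365 (GRCm38, minus strand) through a long processed transcript that reaches past the coding ones, and counts per gene do not say which exons the remaining reads came from.

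The other subunit genes did not pass the test in either fit. Pole read 60.1, 60.3 and 73.0 CPM in Pole4-/- Trp53-/- and 37.5, 55.3 and 76.7 in Pole4+/+ Trp53-/- libraries. Pole2 read 12.02, 10.3 and 11.3 against 5.69, 12.7 and 9.62 CPM. Pole3 read 34.6, 35.2 and 42.1 against 25.3, 39.6 and 36.7 CPM. For all 3 genes the groups overlapped and the first Pole4+/+ library was the lowest of the 6. Their log2 differences were 0.20 (95% interval −0.21 to 0.60) for Pole, 0.27 (−0.21 to 0.75) for Pole2 and 0.14 (−0.19 to 0.47) for Pole3. Without that library they became −0.03 (−0.35 to 0.30), 0.003 (−0.37 to 0.37) and −0.03 (−0.31 to 0.25). Chrac1, the other partner of Pole3, read 9.48, 7.49 and 8.55 against 7.36, 11.6 and 9.46 CPM, with overlap. In exact two-sided permutation tests of 3 against 3 libraries p was 0.1 for Pole4, the smallest this design allows, 0.5 for Pole and Pole2, 0.6 for Pole3 and 0.7 for Chrac1.

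**Figure D1:**
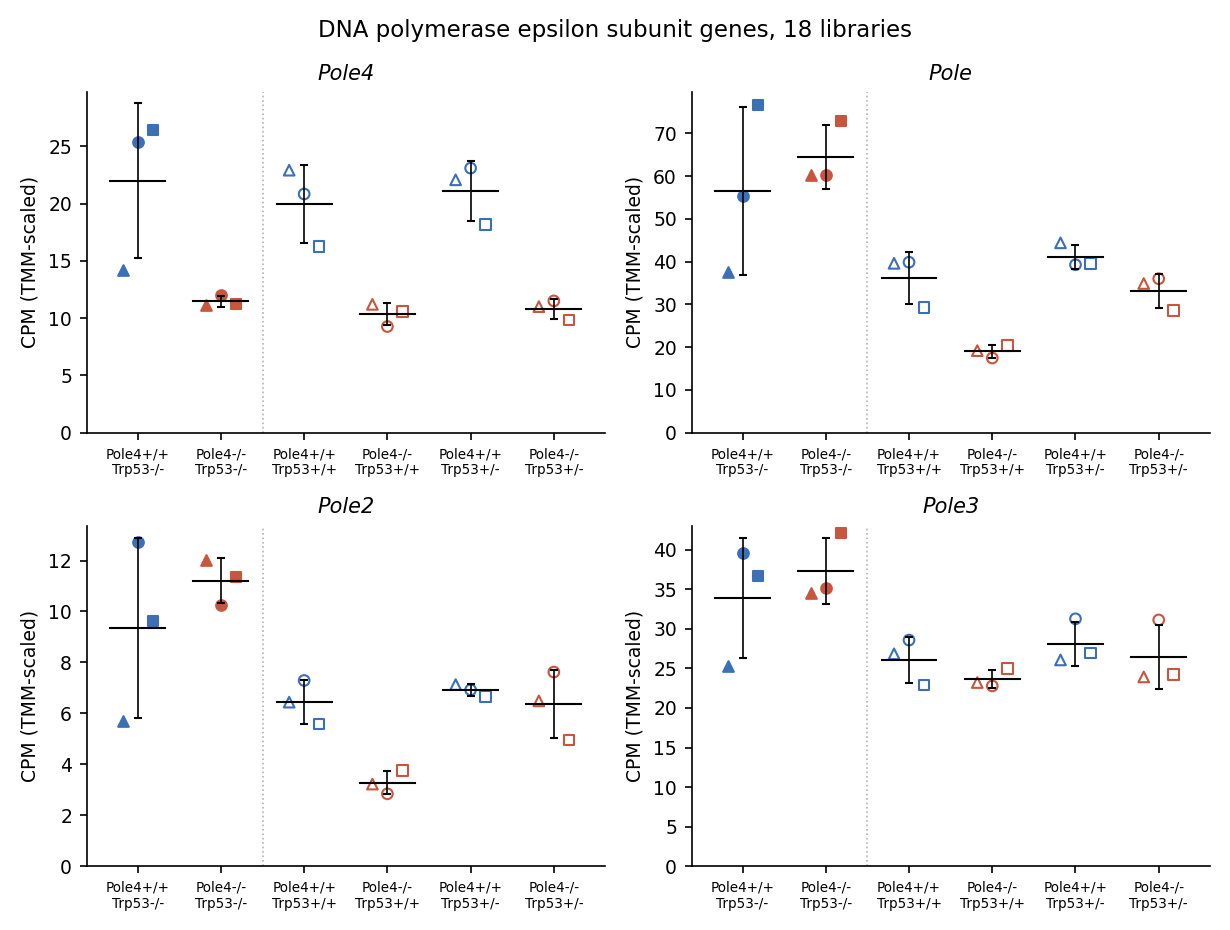
TMM-scaled CPM (linear axis from 0) of Pole4, Pole, Pole2 and Pole3 in all 18 libraries by genotype; triangles, circles and squares are replicates 1, 2 and 3, bars are means ± SD of 3 libraries, blue is Pole4+/+, red Pole4-/-, filled symbols the Trp53-/- libraries. The first Pole4+/+ Trp53-/- library (filled blue triangle) was the lowest of its group for all 4 genes, and Pole4 was at 9.26 to 11.99 CPM in all 9 Pole4-/- libraries.

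A single gene passed the test among 15710 when all 6 libraries were used, and it was higher without Pole4 (0.00637% of genes higher and 0% lower; 1636 genes had an unadjusted p under 0.05). It was Tbx20, a T-box transcription factor known for its part in heart development. Tbx20 read 7.39, 11.2 and 7.09 CPM in Pole4-/- Trp53-/- libraries and 2.46, 1.94 and 2.02 in Pole4+/+ Trp53-/- libraries. Every Pole4-/- library was above every Pole4+/+ library, and the difference was 1.99 ± 0.28 log2 units (edgeR adjusted p = 0.0469). Without the first Pole4+/+ library it was 2.12 ± 0.33 and missed the threshold (adjusted p = 0.0706). In that fit a single gene passed, Pole4 itself, and it was lower (0.00637% of genes lower and 0% higher; 859 genes had an unadjusted p under 0.05). DESeq2 called more, with both Tbx20 and Pole4 in each set. It called 14 genes higher and 15 lower with all libraries, and 14 higher and 8 lower without the first Pole4+/+ library. These include sizes far beyond the other calls, with all libraries −22.887 log2 for Gm49325, −22.464 for Gm4294 and 25.034 for Gm28037. Without the first library these genes stayed, joined by Hist2h3c1 (17.243) and the Y-linked Eif2s3y (24.214). Eif2s3y held 696 counts in the male Pole4-/- library and 2 and 0 in the other Pole4-/- libraries. The totals were not recounted without such genes. Of the 6 libraries, leaving out any but the third Pole4-/- Trp53-/- library ended the call of Tbx20, whose difference stayed between 1.75 and 2.12 log2 units. The fit also holds the other genotypes, and leaving out most single libraries of these ended that call too. It stayed without Pole4-/- Trp53+/+ replicate 1 or 3 or Pole4+/+ Trp53+/+ replicate 2 or 3. The call of Pole4 without the first Pole4+/+ library was lost on also leaving out the second or the third. This left 1 Pole4+/+ library, assumed to vary like the other groups, with a difference of Pole4 between −1.21 and −1.14 log2.

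Other genes of low p did not pass edgeR's test, and 8 of them, chosen after their values were seen, are given as a description. Of the 8, Pax3 ranked 20 by p among all genes and the others were among the lowest 12. DESeq2 with all libraries called each of them, with an adjusted p of 9.43e-05 for Gm6093, 0.0216 for Tspan13, 1.3e-05 for Upk1b, 0.00434 for Klra4 and Nhsl2, 0.0216 for Ebf2, 0.0254 for Pax3 and 0.0313 for Pgls, and edgeR with no filter on low counts called Upk1b (0.0225). Upk1b, a uroplakin of lining epithelia, read 4.08, 2.67 and 6.56 CPM in Pole4-/- Trp53-/- libraries and 0.474, 0.466 and 0.647 in Pole4+/+ Trp53-/- libraries, without overlap (edgeR adjusted p = 0.131). Klra4, a receptor of the Ly49 family of natural killer cells, read 3.54, 3.87 and 5.70 against 1.73, 1.12 and 0.728 CPM (adjusted p = 0.300); reads of this family can be divided among near-identical copies. Pax3, a transcription factor of neural crest and muscle precursors, read 25.2, 20.5 and 18.9 against 9.71, 11.7 and 11.5 CPM (adjusted p = 0.349). Gm6093, a long noncoding RNA, read 7.26, 10.5 and 5.70 against 2.31, 1.55 and 1.05 CPM (adjusted p = 0.300). These 4 genes were higher in every Pole4-/- library. Among genes on the low side, Nhsl2 read 5.40, 5.39 and 7.29 against 12.9, 11.2 and 11.2 CPM, and Pgls, an enzyme of the pentose phosphate pathway, 15.7, 16.4 and 15.4 against 21.6, 20.4 and 22.6 CPM. Ebf2, a transcription factor of mesenchymal and fat precursors, read 2.13, 2.04 and 1.92 against 6.05, 3.76 and 4.37 CPM, and Tspan13, a tetraspanin, 1.54, 1.47 and 1.39 against 5.89, 3.38 and 2.67 CPM. These 4 were lower in every Pole4-/- library, with edgeR adjusted p of 0.300, 0.300, 0.303 and 0.303. The differences of the 8 genes without the first Pole4+/+ library were 3.02 log2 for Upk1b, 2.19 for Klra4, 0.90 for Pax3, 2.54 for Gm6093, −0.89 for Nhsl2, −0.43 for Pgls, −0.98 for Ebf2 and −1.04 for Tspan13. None passed edgeR's test with the filter on low counts, while edgeR with no filter called Upk1b and Klra4 (adjusted p = 0.0405 for each), and DESeq2 called Upk1b (0.00136), Klra4 (0.000938) and Gm6093 (2.88e-05).

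Removing the first Pole4+/+ library brought forward genes in which it had differed from the other 2. Twist2, a mesenchymal transcription factor, read 24.1, 18.6 and 23.5 CPM in Pole4-/- Trp53-/- libraries against 20.2, 33.9 and 35.7 in Pole4+/+ Trp53-/- libraries. It was −0.65 log2 without the first library (edgeR adjusted p = 0.119) and −0.44 with it. Alx1, a homeobox gene of craniofacial mesenchyme, read 19.1, 21.7 and 17.4 against 14.5, 10.2 and 9.70 CPM, with no overlap in either set (edgeR adjusted p = 0.274 without the first library and 0.443 with it). Without the first library both genes were called by DESeq2 (adjusted p = 0.000647 for Twist2 and 0.000938 for Alx1) and by edgeR with no filter on low counts (0.0465 for each).

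**Figure D2:**
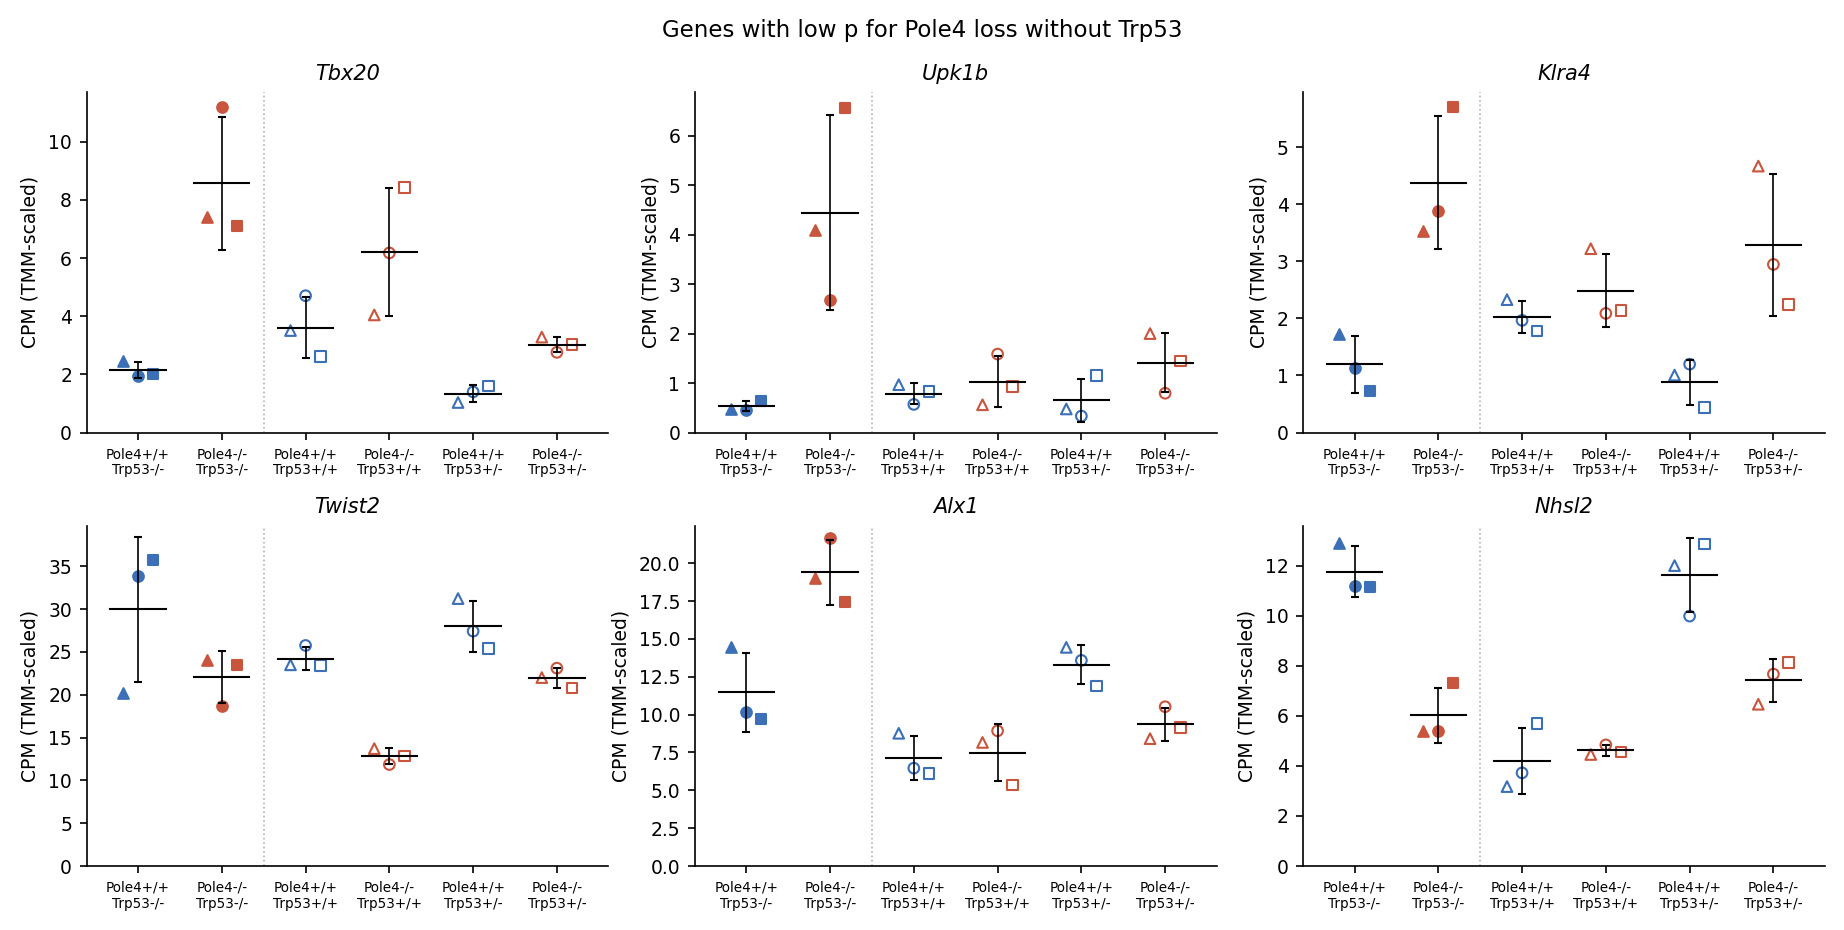
TMM-scaled CPM (linear axis from 0) of Tbx20, Upk1b, Klra4, Twist2, Alx1 and Nhsl2 in all 18 libraries by genotype; symbols are replicates 1 (triangle), 2 (circle) and 3 (square), bars means ± SD of 3 libraries, blue Pole4+/+, red Pole4-/-, filled the Trp53-/- libraries. The Pole4-/- Trp53-/- libraries were above the Pole4+/+ Trp53-/- libraries for Tbx20 (7.09 to 11.2 against 1.94 to 2.46), Upk1b, Klra4 and Alx1 and below them for Nhsl2, while for Twist2 the first Pole4+/+ library lay among them.

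Upk1b is among the genes listed here for mesothelium, the lining of body cavities, and most but not all of the other listed genes had the same direction. The list of 12 mesothelial genes was written after Upk1b and Podxl had been seen, so it supports nothing. In Pole4-/- Trp53-/- against Pole4+/+ Trp53-/- libraries Upk3b read 6.08, 2.15 and 5.83 against 1.39, 0.660 and 0.970 CPM, Podxl 5.04, 3.25 and 7.03 against 0.753, 1.20 and 1.70, and Wt1 3.13, 1.73 and 5.17 against 0.530, 0.737 and 0.808. Lrrn4, Muc16, Gpm6a and Rspo1 did not overlap between groups either, so that 8 of the 12 were higher in each Pole4-/- library, beside 4.32% of all genes. Msln, which defines the lining, read 1.04, 1.36 and 3.91 against 3.52, 0.737 and 1.78 CPM and overlapped, as did Bnc1 and Krt19, and Nkain4 was lower in each Pole4-/- library. Nkain4 is set beside 4.83% of all genes that were lower in this way. The list's median was 2.01 log2, or 1.69 without the first library, 0.14 in Trp53+/+ and 0.82 in Trp53+/- cells. In Trp53-/- cells none of the 12 passed the edgeR test with the filter on low counts, while with all libraries edgeR with no filter called Upk1b and DESeq2 called Upk1b, Podxl and Lrrn4, all higher. In Trp53+/+ cells edgeR called Nkain4 higher (2.71 log2, adjusted p = 0.0220), and it was the 1 gene of the list that the interaction described below called, on the lower side with all libraries (edgeR adjusted p = 0.0382, or 0.0524 without the first Pole4+/+ library). The summed level of the list was 35.2 to 64.1 CPM in Pole4-/- Trp53-/- libraries and 15.4 to 26.3 in Pole4+/+ Trp53-/- libraries, and 15.2 to 34.3 in the 12 libraries of the other genotypes. In these bulk samples more cells of a type and more RNA per cell cannot be told apart.

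No gene of the replication and cell cycle lists other than Pole4 passed the test for Pole4 loss in the absence of Trp53. None of the 29 origin licensing and firing genes, 42 S-phase genes, 52 G2/M genes, 23 further fork enzymes, 22 histone H3-H4 chaperones, 22 nucleotide supply genes, 32 genes of homologous recombination and the Fanconi anemia pathway, 15 translesion synthesis genes or 14 genes of the ATR-CHK1 checkpoint passed the test, with or without the first Pole4+/+ library. The median log2 difference was 0.15 for origin licensing, 0.18 for S-phase and 0.22 for G2/M genes with all libraries, beside −0.02 over all genes tested. Without the first library these medians were −0.06, −0.04 and 0.04, beside 0.004 over all genes. These positive medians rested on that library. Top2a, the topoisomerase of dividing cells, shows the pattern, with 470, 472 and 530 CPM in Pole4-/- Trp53-/- libraries against 295, 427 and 462 in Pole4+/+ Trp53-/- libraries, and 0.31 ± 0.15 log2 with the first library against 0.15 without it.

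Genes of low p in these lists went in both directions and none passed. Of the G2/M genes, Psrc1, a spindle protein, read 3.54, 2.04 and 3.91 CPM in Pole4-/- Trp53-/- against 5.83, 4.85 and 3.15 in Pole4+/+ Trp53-/- libraries (−0.59 ± 0.22 log2, edgeR adjusted p = 0.449), and Hmgb2, a chromatin protein of dividing cells, 45.5, 49.5 and 59.8 against 26.1, 48.1 and 34.7 CPM (0.51 ± 0.19 log2, adjusted p = 0.451). Both overlapped between groups, and without the first library they differed by −0.38 and 0.32 log2. Brca1, of homologous recombination, read 37.7, 38.5 and 39.1 CPM in Pole4-/- Trp53-/- against 26.1, 32.7 and 32.9 in Pole4+/+ Trp53-/- libraries, without overlap (0.33 ± 0.10 log2, edgeR adjusted p = 0.447; 0.24 and 0.870 without the first library). Rnaseh2b, a subunit of the enzyme that removes ribonucleotides left in DNA by the polymerases, read 14.6, 14.4 and 15.7 against 10.3, 13.2 and 11.3 CPM. Samhd1, which degrades dNTPs, read 135, 154 and 139 against 92.1, 116 and 114 CPM. Brip1, the helicase partner of Brca1, and Atad2, an S-phase chromatin ATPase, differed by 0.37 and 0.38 log2 with all libraries (edgeR adjusted p = 0.451 and 0.457) and by 0.23 and 0.18 without the first. For Rnaseh2b and Samhd1 the differences were 0.36 and 0.41 with it and 0.28 and 0.31 without it. Smarca5, the motor of the remodelling complexes that hold Pole3 and Chrac1, read 258, 253 and 295 against 163, 258 and 234 CPM and overlapped (0.30 log2, or 0.13 without the first library).

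Replication-dependent histone genes had a negative median that was larger without the first Pole4+/+ library. Of 63 tested, 16 had an unadjusted p under 0.05 and were lower, and none higher, with a median of −0.40 log2, where 2.9% of all genes had such a p on the lower side; edgeR called none of the 63. With all 6 libraries the median was −0.12 and 1 gene of the 63 had such a p on the lower side, beside 6.94% of all genes. Hist1h2ad read 31.2, 16.2 and 24.2 CPM in Pole4-/- Trp53-/- against 24.1, 52.2 and 38.2 in Pole4+/+ Trp53-/- libraries, and Hist1h2ae 21.7, 19.4 and 17.4 against 19.2, 32.8 and 39.8 CPM. For both genes the 2 later Pole4+/+ libraries were above all Pole4-/- libraries and the first was not. Histone messages have near-identical copies and mostly lack a poly(A) tail, so the share of each gene in the counts is uncertain.

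The medians of many other lists moved with the first Pole4+/+ library. Its mean log2 CPM was 0.67 below the median of the other 5 libraries for origin licensing genes, 0.74 for S-phase genes, 0.58 for G2/M genes and 1.03 for contractile genes. It was 1.37 above for interferon-stimulated genes, 0.99 for fibroblast markers, 0.65 for collagens and matrix proteins and 0.50 for TRP53 targets. The other 5 libraries spanned only 0.20, 0.25, 0.27, 0.21, 0.39, 0.15, 0.19 and 0.24 log2 for these 8 lists. With its level of Pole4 between the 2 genotypes and its reads of Ddx3y beside Xist, whether it holds RNA of another sample was not tested, and its label was kept.

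**Figure D3:**
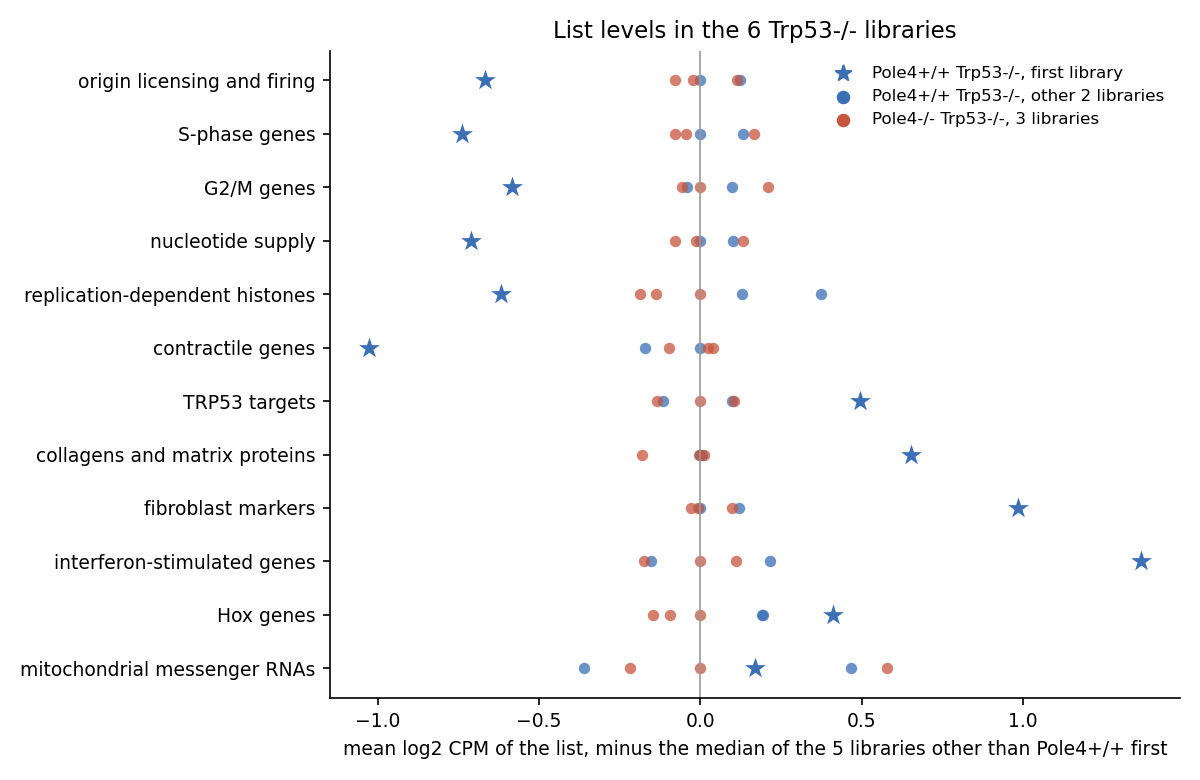
Mean log2 CPM of 12 gene lists in each of the 6 Trp53-/- libraries, given as the difference (x axis, log2) from the median of the 5 libraries other than the first Pole4+/+ library; the star is the first Pole4+/+ library, blue circles the other 2 Pole4+/+ and red circles the 3 Pole4-/- libraries. The star lies outside the other 5 for every list but the mitochondrial messenger RNAs, from −1.03 for contractile genes to 1.37 for interferon-stimulated genes.

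Interferon-stimulated genes, TRP53 targets and matrix genes had negative medians with all libraries and fewer genes of low p without the first. Of 34 interferon-stimulated genes, 11 had an unadjusted p under 0.05 and were lower, with a median of −0.56 log2; without the first library 1 did, with a median of −0.04. Beside these stand 6.94% and 2.9% of all genes on the lower side. Igtp, an interferon-induced GTPase, was low in all 3 Pole4-/- libraries in either case, at 0.454, 0.262 and 0.265 CPM against 3.43, 1.12 and 0.970 (−2.49 log2 with all libraries and −1.64 without the first; edgeR adjusted p = 0.300 and 0.684). DESeq2 with all libraries called it lower (adjusted p = 0.0216). Of 47 TRP53 targets, 9 had such a p on the lower side and 1 on the higher, with a median of −0.20, against 2, 1 and a median of 0.00 without the first library. Of 41 collagens and matrix proteins, 5 were lower at that p and 1 without the first library. Thbs2, a matrix thrombospondin, read 165, 201 and 162 against 391, 244 and 272 CPM. Mest, an imprinted growth gene, read 56.1, 32.0 and 49.9 against 403, 59.1 and 42.8 CPM, and Lum, a collagen-binding proteoglycan, 1.68, 4.61 and 4.71 against 41.7, 3.03 and 3.72. Without the first library the differences of Mest and Lum were −0.15 and 0.13 log2, against −1.88 and −2.18 with it.

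Contractile genes went the other way with all libraries, with a median of 0.35 log2, and 0.08 without the first. Cald1, an actin-binding regulator of contraction, read 1732, 1897 and 1976 CPM in Pole4-/- Trp53-/- against 1085, 1586 and 1677 in Pole4+/+ Trp53-/- libraries (0.37 log2, or 0.20 without the first). Of 35 Hox genes, which pattern the body axis, 8 had an unadjusted p under 0.05 with all libraries and all 8 were lower (median −0.36), and 1 without the first library (median −0.23), beside 6.94% and 2.9% of all genes on the lower side. Hoxa2 read 1.81, 2.67 and 2.45 against 8.62, 2.56 and 3.15 CPM (−1.07 log2, or −0.29 without the first library). Further lists were those for the CHRAC and ATAC complexes, matrix proteases, secreted cytokines and chemokines, the IGF axis, cholesterol synthesis, glycolysis, the ATF4 response and the NRF2 response. With all libraries 5 of 24 cholesterol genes, 4 of 26 IGF axis genes and 3 of 25 matrix protease genes were lower at such a p, beside 6.94% of all genes. The other lists held at most 2 lower, and each list at most 1 higher, beside 3.47%. Without the first library each held at most 1 on either side, beside 2.9% of all genes lower and 2.57% higher. None of these genes was called by edgeR.

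Mitochondrial messenger RNAs had a positive median of much the same size in both fits. Of the 13, 7 had an unadjusted p under 0.05 with all libraries and 4 without the first Pole4+/+ library, all higher, with medians of 0.28 and 0.31 log2, beside 3.47% and 2.57% of all genes on the higher side; edgeR called none. The complex I genes mt-Nd4l and mt-Nd2 read 328, 334 and 295 against 256, 274 and 237 CPM, and 1761, 1547 and 2082 against 1147, 1493 and 1244. The summed list was 20787 to 24414 CPM in Pole4-/- Trp53-/- and 18472 to 20768 in Pole4+/+ Trp53-/- libraries. The mitochondrial ribosomal RNA genes mt-Rnr1 and mt-Rnr2 were also higher in every Pole4-/- library (mt-Rnr2 at 18470, 19380 and 18510 against 1343, 9687 and 1549 CPM), as was the share of all ribosomal RNA above. Scaled by library totals, in which ribosomal RNA counts, mt-Nd4l turned to −0.10 log2 while the median of all genes moved to −0.43. The part of ribosomal RNA in these values was not tested.

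More genes passed the test for Pole4 loss in Trp53+/+ cells. In Trp53+/+ cells 202 genes were higher (1.29%) and 424 lower (2.70%), in Trp53+/- cells none was higher and 1 lower (0.00637%), the stress ligand Ulbp1. The 3 comparisons share no library. By edgeR none of the genes called in Trp53+/+ was called in Trp53-/- cells with all libraries, and 1, Pole4, without the first. With all libraries DESeq2 shared 5 calls between these genotypes and voom 1. The 424 lower genes had a median of −0.70 log2 in Trp53+/+ and 0.12 in Trp53-/- cells (quartiles −0.004 and 0.23), with 25.9% of them lower there. Without the first Pole4+/+ library the median was −0.03, with 58.7% lower. The 202 higher genes had a median of 0.99 in Trp53+/+ and −0.13 in Trp53-/- cells, with 31.2% higher, or 0.05 and 59.4% without that library. Which direction held the larger share thus turned on 1 library.

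**Figure D4:**
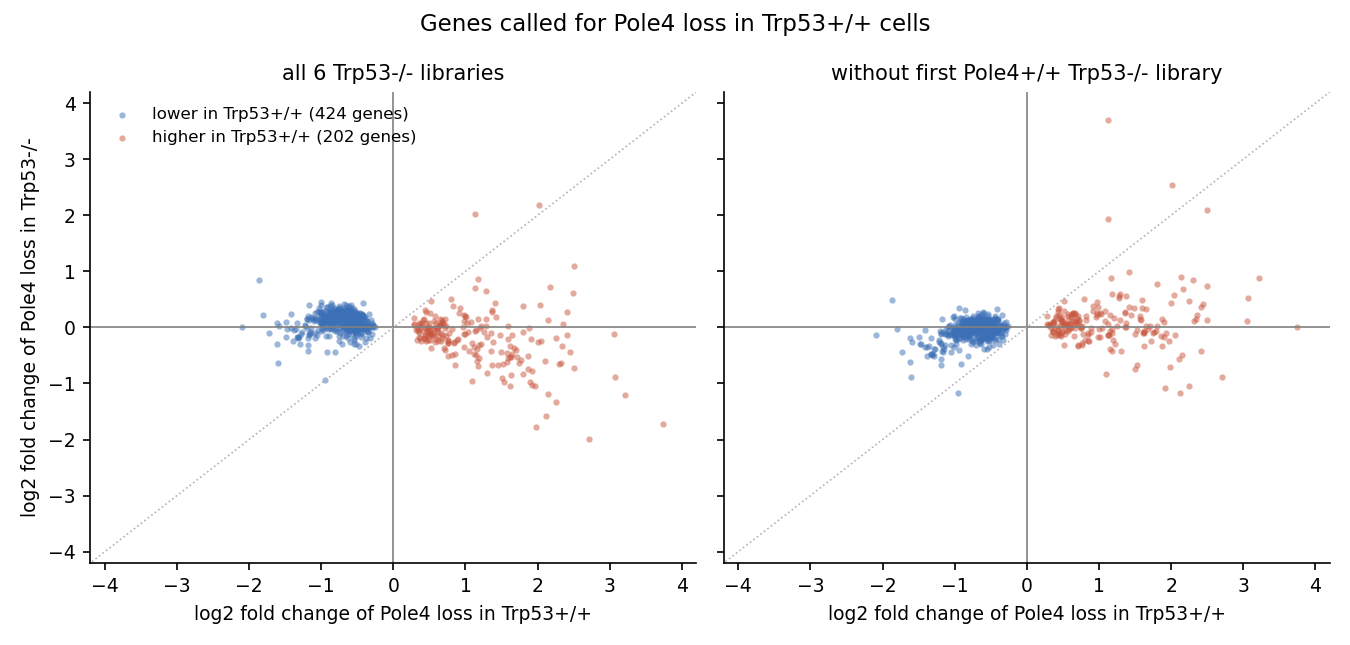
Log2 fold change of Pole4 loss in Trp53-/- cells (y axis) against that in Trp53+/+ cells (x axis) for the genes called in Trp53+/+, with all 6 Trp53-/- libraries at left and without the first Pole4+/+ library at right; blue genes were lower and red genes higher in Trp53+/+, and the dotted line is equality. On the y axis the medians of the blue and the red genes are 0.12 and −0.13 at left and −0.03 and 0.05 at right.

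In Trp53+/+ cells many replication and cell cycle genes fell. Of the S-phase genes 20 of 42 were called lower there, of the G2/M genes 37 of 52, of origin licensing and firing genes 13 of 29 and of the replication-dependent histones 31 of 63, beside 2.70% of all genes, with medians of −0.79, −0.75, −0.80 and −1.14 log2. Pole, Pole2 and Pole4 were called lower and Pole3 was not. In Trp53-/- cells the medians of the first 3 lists were between −0.06 and 0.22 in both fits. That of the histones stayed negative there, at −0.12, or −0.40 without the first Pole4+/+ library. The test of the difference itself, an interaction of Pole4 loss with Trp53-/- against Trp53+/+, called 28 genes higher (0.178%) and 24 lower (0.153%), and 143 higher (0.910%) and 31 lower (0.197%) without the first Pole4+/+ Trp53-/- library. Of these 4 lists it called 2 S-phase and 4 G2/M genes, all higher, and without that library 10 S-phase, 24 G2/M, 3 origin licensing and firing and 1 histone gene, all higher. For Pole and Pole2 the interaction was 1.13 ± 0.28 and 1.26 ± 0.33 log2 and missed the threshold (edgeR adjusted p = 0.0524 and 0.0583), and for Pole4 it was 0.02 ± 0.27. On leaving out the first Pole4+/+ Trp53-/- library, Pole passed at 0.91 ± 0.21 (edgeR adjusted p = 0.0490) and Pole2, at 0.998 ± 0.25, did not (adjusted p = 0.0590). In Trp53+/+ cells 2 of the 3 Pole4-/- libraries were male and all 3 Pole4+/+ libraries female by Xist and Ddx3y, and ribosomal RNA took 7.11%, 24.1% and 42.5% of counts in the Pole4-/- and 11.2%, 9.30% and 5.81% in the Pole4+/+ libraries. With Xist as a covariate the interaction called 0 genes, and without the ribosomal RNA genes 199 higher and 134 lower. The 4 genes with the lowest p, given below, kept the sign of their interaction in each of 22 alternatives, Xist as a covariate among them. For Fam111a it was 0.884 to 1.138 log2 and for Csgalnact1 −2.088 to −1.587. The count of interaction calls also turned on single libraries, being 0 to 1 on either side without any 1 Pole4-/- Trp53-/- library and 965 and 1642 higher without the second or the third Pole4+/+ Trp53-/- library.

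**Figure D5:**
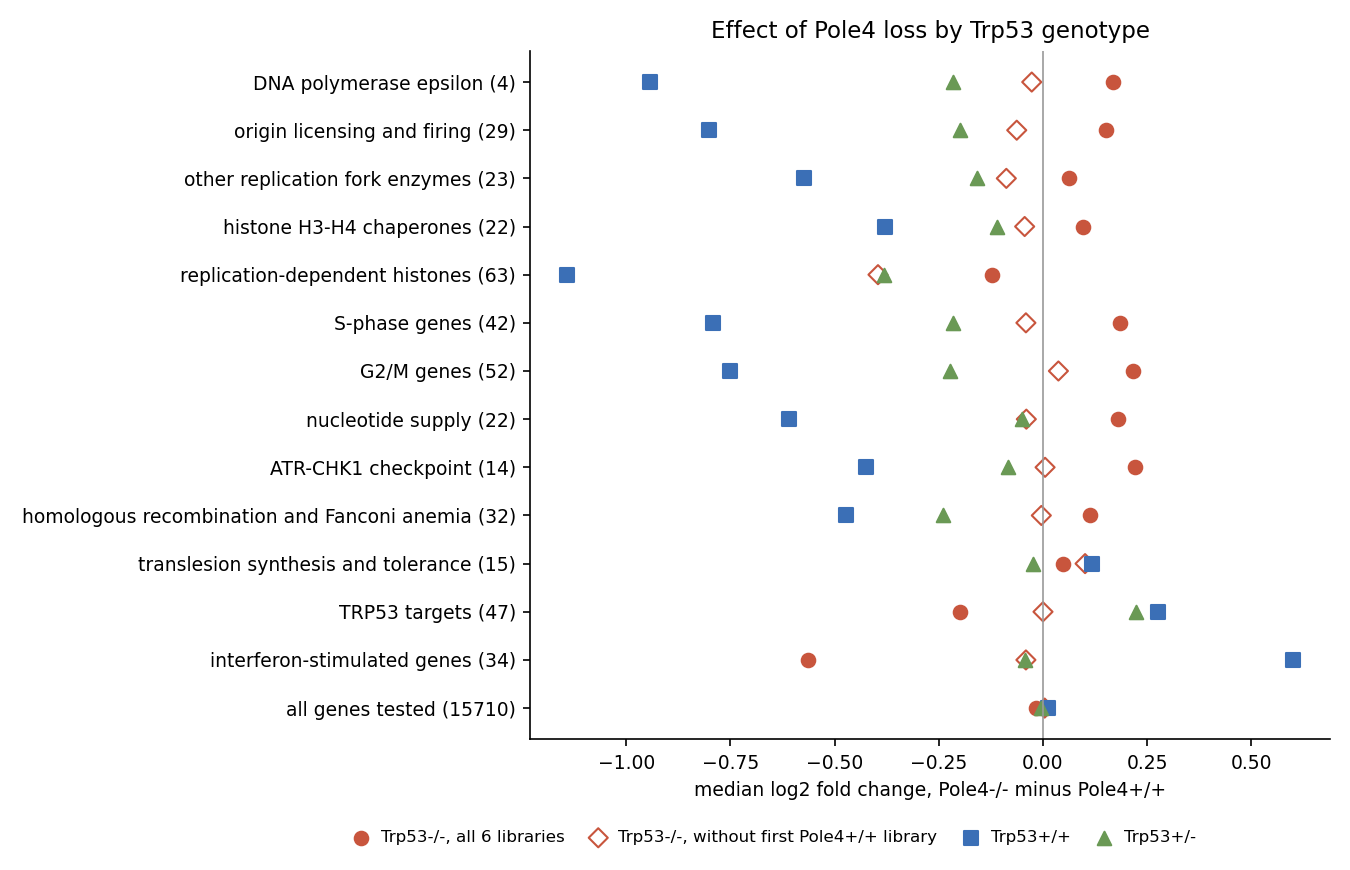
Median log2 fold change of Pole4 loss (x axis, Pole4-/- minus Pole4+/+) for 13 gene lists and all genes tested, with the number of genes tested in brackets: filled red circles are Trp53-/- cells with all 6 libraries, open diamonds the same without the first Pole4+/+ library, blue squares Trp53+/+ and green triangles Trp53+/- cells. The S-phase list lies at −0.79 in Trp53+/+ and at 0.18 or −0.04 in Trp53-/- cells, and the replication-dependent histones are the lowest of the lists drawn in Trp53+/+ at −1.14.

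The 4 genes with the lowest p in the interaction differed by Pole4 genotype mainly in Trp53+/+ cells. Fam111a, a protease that acts at replication forks, read 92.5, 89.6 and 103 CPM in Pole4-/- Trp53-/- and 64.2, 89.2 and 87.7 in Pole4+/+ Trp53-/- libraries, and 33.9, 33.8 and 34.1 against 56.8, 64.2 and 58.0 in Trp53+/+ cells. Its groups did not overlap in either, with a difference upward by 0.24 ± 0.11 log2 without Trp53 (0.11 without the first Pole4+/+ library), which was not called, and downward by 0.81 ± 0.11 with it. Parpbp, an inhibitor of homologous recombination, read 21.6, 22.7 and 23.1 against 16.5, 19.8 and 22.6 CPM without Trp53, and 8.31, 6.76 and 7.63 against 15.4, 14.9 and 13.0 with it. On the other side Cst3, a secreted protease inhibitor, read 67.5, 71.4 and 61.2 against 99.9, 78.4 and 64.4 CPM without Trp53, and 171, 149 and 161 against 88.3, 88.8 and 91.5 with it. Csgalnact1, which starts chondroitin sulfate chains, read 7.62, 6.23 and 6.10 against 12.1, 6.98 and 7.68 CPM without Trp53, and 42.6, 36.0 and 37.1 against 14.3, 10.4 and 16.3 with it. The edgeR adjusted p of the interaction was 0.0313 for each of the 4, and 0.00857, 0.0215, 0.0144 and 0.0220 without the first Pole4+/+ Trp53-/- library.

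A few genes had the same direction in all 3 Trp53 genotypes. At an unadjusted p under 0.05 in each (3.47%, 11.3% and 2.75% of all genes higher and 6.94%, 14.8% and 2.76% lower in Trp53-/-, Trp53+/+ and Trp53+/- cells), 10 genes were higher and 20 lower; the 10 are 1.83% of the 545 higher at that p in Trp53-/-, 0.561% of the 1783 in Trp53+/+ and 2.31% of the 432 in Trp53+/- cells. Without the first Pole4+/+ Trp53-/- library 14 were higher and 20 lower. With all libraries edgeR called no gene in all 3 genotypes, and without that library it called Pole4 in all 3. Tbx20 was among the 10, at 4.04, 6.18 and 8.43 against 3.51, 4.71 and 2.61 CPM in Trp53+/+ cells and 3.28, 2.76 and 3.04 against 1.03, 1.40 and 1.60 in Trp53+/- cells, so that the groups overlapped in Trp53+/+ and not in the other genotypes. Dsp, which anchors desmosomes, was 1.25, 0.99 and 1.15 log2 higher in Trp53-/-, Trp53+/+ and Trp53+/- cells, and Ldb3, a Z-disc protein of striated muscle, 0.77, 0.53 and 1.00. Among the 20 lower genes were Pole4 (−0.93, −0.95 and −0.97 log2), Twist2 (−0.44, −0.92 and −0.35) and the homeobox gene Irx1 (−0.43, −0.82 and −0.65).

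Apart from the mesothelial list, the summed markers of each other cell type overlapped between the Pole4 genotypes with all 6 libraries. Macrophage markers summed to 45.5, 9.11 and 33.3 CPM in Pole4-/- Trp53-/- and 9.32, 32.0 and 37.1 in Pole4+/+ Trp53-/- libraries. Epithelial markers summed to 36.2, 22.2 and 41.5 against 7.42, 27.7 and 32.0 CPM, endothelial markers to 36.9 to 80.1 against 28.2 to 88.5, and neuronal markers to 129 to 149 against 104 to 141. Skeletal muscle markers summed to 67.7, 59.5 and 38.0 against 50.2, 34.3 and 29.3 CPM, and without the first Pole4+/+ library (50.2 CPM) they did not overlap. The median over the 12 muscle genes was 0.15 log2 with it and 0.98 without it, with 1 and 3 genes higher at an unadjusted p under 0.05, beside 3.47% and 2.57% of all genes. The satellite cell factor Pax7 read 6.99, 3.46 and 5.57 against 0.837, 2.56 and 1.46 CPM without overlap (edgeR adjusted p = 0.447). No erythroid marker passed the filter on low counts. Endothelial, adipocyte and glial markers held 1 gene each that was lower at an unadjusted p under 0.05 with all libraries (6.94% of all genes) and neuronal markers 1 that was higher (3.47%), and without the first Pole4+/+ library none of these 4 lists held any. Cartilage markers held 4 of 9 genes with an unadjusted p under 0.05, all lower, and 1 without the first library, beside 6.94% and 2.9% of all genes; Col9a1, a cartilage collagen, read 0.227, 0.157 and 0.464 against 2.57, 0.621 and 1.21 CPM. The part of these markers in the results above was not tested.

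The chromosome around the targeted gene gave no other gene called by edgeR in Trp53-/- cells. Of 84 genes tested whose start lies within 5 Mb of that of Pole4, 5 had an unadjusted p under 0.05 with all libraries and all 5 were lower, beside 6.94% of all genes on that side. When the first Pole4+/+ library was left out, 5 were lower and 2 higher at that p, beside 2.9% and 2.57% of all genes. The median over the 84 was −0.05 log2, and −0.02 without that library.

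For the typical gene the 95% interval of the log2 difference reached 0.40 to either side with all libraries and 0.37 without the first Pole4+/+ library, and for 67.8% and 69.7% of the genes it lay wholly within 1 log2 unit of 0. A gene that missed the threshold may therefore still differ by any amount within its interval, which for the remaining genes reaches beyond 1 log2 unit.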

How the data were processed

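RNA of primary MEFs was sequenced by the authors on an Illumina HiSeq 4000. Per the methods the authors trimmed the reads, aligned them to GRCm38 with STAR 2.5.2 and quantified Ensembl genes with RSEM 1.3.0. The deposited values are RSEM's expected counts for 51912 genes, not scaled, of which 6.14% are not whole because RSEM divides reads that several genes share. The expected counts were rounded, given GENCODE M21 symbols (51633 matched) and filtered by filterByExpr to 15710 genes. With edgeR 4.0.16 (R 4.3.3), 1 mean per genotype was fitted over all 18 libraries, with TMM scaling and robust quasi-likelihood F-tests (12 residual degrees of freedom), Benjamini-Hochberg adjustment over all genes and a threshold of 0.05. The level of a list is the mean of its genes' log2 CPM, to which a prior of 2 counts was added. Alternatives used DESeq2 1.42.0 and limma 3.58.1 (voom). The scripts were tested on simulated data. Ribosomal RNA stayed in the library totals, and other scalings were tried.

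The genotypes, the 37 gene lists and the rule for named genes were chosen with earlier results of these data known. The rule took the Pol epsilon genes and called genes, up to 4 called genes of a list or else the 2 of lowest p, the 4 lowest p of the interaction, and sex and ribosomal RNA genes. The mesothelial list, and genes named for a low p without a call, were added after values were seen.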

Additional observations from a re-analysis of the deposited data

Results flagged for a closer look

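A test of the interaction of Pole4 loss with Trp53-/- against Trp53+/+ called 28 genes higher and 24 lower. Among the 4 genes with the lowest p the interaction, in log2 units, was 1.06 ± 0.16 for Fam111a, 1.13 ± 0.17 for Parpbp, −1.12 ± 0.17 for Cst3 and −1.93 ± 0.31 for Csgalnact1, each with an edgeR adjusted p of 0.0313. The interaction counts were 0 on leaving out any of several single libraries, as given with the dependence on processing. In each of these 4 genes the larger part of the difference came from Trp53+/+ cells, where the log2 effects of Pole4 loss were −0.81, −0.93, 0.84 and 1.496. In the Trp53+/+ groups 2 of 3 Pole4-/- and 0 of 3 Pole4+/+ libraries were male, and with Xist as a covariate the interaction called 0 genes. Over 22 alternatives, Xist as a covariate among them, the interaction in log2 units was 0.884 to 1.138 for Fam111a and 0.993 to 1.233 for Parpbp. It was −1.269 to −0.931 for Cst3 and −2.088 to −1.587 for Csgalnact1. The part of sex in these values was not separated from that of Pole4.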

How the results depend on the processing

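In Trp53-/- cells 1 gene was called higher with edgeR, 14 with DESeq2, 2 with no filter on low counts and 0 with voom, library totals alone, upper-quartile scaling, no ribosomal RNA genes, a mean of at least 50 counts, the replicate block, only the libraries compared or an adjusted p under 0.01. On leaving out 1 library it was 0 to 2. Genes called lower went from 0 to 15 with DESeq2 and 1 with voom, and 0 to 1 on leaving out 1 library. Without the first Pole4+/+ library, the count higher went from 0 to 14 with DESeq2, 4 with no filter and 1 with Xist as a covariate, and the count lower from 1 to 8 with DESeq2, 2 with no filter and 0 with only the libraries compared, and 0 to 1 on leaving out 1 more library. The DESeq2 counts include the calls of extreme size given with the results. Tbx20 was called in 4 of its 16 alternatives (adjusted p 3.46e-07 to 0.712) and Pole4 in 3 of 16 (0.00309 to 0.925), or 12 of 15 without the first Pole4+/+ library.

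The interaction called 28 genes higher and 24 lower with edgeR. These were 843 and 835 with DESeq2, 770 and 464 with voom, 156 and 152 with upper-quartile scaling, 199 and 134 with no ribosomal RNA genes, 255 and 84 with no filter, 257 and 233 with a mean of at least 50 counts, and 249 and 299 with the replicate block. Both were 0 with library totals alone, Xist as a covariate, only the libraries compared or an adjusted p under 0.01. On leaving out 1 library they were 0 to 1642 and 0 to 1636. Calls shared by Trp53-/- and Trp53+/+ cells went from 0 to 5 with DESeq2 and 1 with voom, and those shared with Trp53+/- from 0 to 3 and 1. Both were 0 to 1 on leaving out 1 library. The cause was not tested.

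The labels tie libraries of different genotypes by a replicate number alone. Deviations of same-numbered libraries from the means of the 2 Trp53-/- groups correlated at r = −0.057, −0.028 and 0.303. These values cannot tell whether such libraries share a litter or a batch, as the first Pole4+/+ library weighs on its group's mean.

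Of 1163 values for 65 genes, 31 changed direction and none of those 31 was past the threshold. Library totals alone moved the median of all genes to −0.435 log2, and there the differences were −0.21 for Pole, −0.11 for Pole2, −0.25 for Pole3, −0.36 for Trp53, −0.44 for Msln, −0.045 for Rnaseh2b, −0.076 for Brca1, −0.046 for Brip1, −0.004 for Samhd1, −0.094 for Smarca5, −0.145 for Rbbp7, −0.021 for Atad2, −0.087 for Top2a, −0.098 for mt-Nd4l, −0.037 for Cald1, −0.002 for Myl9, −0.16 for Fam111a, −0.21 for Parpbp and −0.16 for Cpe. Relative to that median all but Msln were positive. With voom Pole2 was −0.03 and Pole3 −0.075, and with upper-quartile scaling Msln was −0.041. On leaving out 1 library the ranges were −0.025 to 0.47 for Pole, −0.029 to 0.27 for Pole3, −0.31 to 0.028 for Chrac1, −0.055 to 0.17 for Trp53, −0.76 to 0.79 for Msln, −2.67 to 0.13 for Lum and −0.31 to 0.022 for Ulbp1.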
